A study of Mus musculus with 13 samples.

Results

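The Myc and Max network was described through 9 genes, Myc, Mycn, Mycl, Max, Mxd1, Mxd3, Mxd4, Mxi1 and Mnt, out of 43629 genes in the deposited table. The members were picked by gene symbol, with earlier results of these data known, and each of the 9 symbols matched 1 row. RNA sequencing had been carried out on polyA RNA of single-cell suspensions from 13 samples, namely 5 Atm-/- thymic lymphomas, 5 Rag2c/c p53-/- thymic lymphomas and 3 thymuses of WT mice. Atm-/- mice lack the ATM kinase of the DNA damage response and were of the 129S6/SvEv strain. Rag2c/c p53-/- mice carry RAG2 without its C-terminus, the RAG2 core, lack p53, and had C57BL/6 and 129S6/SvEv ancestry in mixture. WT mice were C57BL/6, and their thymus libraries had been made for another series and were re-used. Each lymphoma came from a different mouse. Genotype, strain, disease and the series of a library go together in these groups and cannot be told apart.

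MYC proteins are basic helix-loop-helix leucine zipper transcription factors that bind DNA only as dimers with MAX, at E-box sequences whose core is CACGTG. MXD proteins, MXI1 and MNT compete for the same partner, MAX, and bring SIN3 and histone deacetylases to the same sites, where they act as repressors. In the thymus MYC drives the growth of early thymocytes downstream of NOTCH1 and the pre-T cell receptor, and it is a recurrent oncogene of T cell lymphomas and leukaemias.

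The E-box is shown for the 3 members whose own RefSeq promoter holds it, because they are the members of the network with a binding sequence of the network at their start. RefSeq promoters (build GRCm38.p6, 250 bases before to 50 after a start) matched 8 of the 9 members, and Myc had no entry. CACGTG, which is its own reverse complement, stood in 3 of those 8 members, against 8.09% of the 27025 genes with a promoter entry. The letters are given 5′ to 3′ on the strand of the gene, with the E-box in capitals.
Max, chr12:76962234-76962263, minus strand, motif 3 bases before the start: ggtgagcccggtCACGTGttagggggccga
Mxd4, chr5:34187912-34187941, minus strand, motif 219 bases before the start: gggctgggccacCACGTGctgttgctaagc
Mnt, chr11:74830789-74830818, plus strand, motif 123 bases before the start: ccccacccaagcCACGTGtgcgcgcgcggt
Among genes known as targets of MYC, Apex1 is shown because its log2 fold change was the highest of the growth and metabolism list in Atm-/- lymphomas. Apex1 encodes a DNA repair endonuclease, and its promoter held 3 E-boxes, at 24 bases before, directly at and 21 bases after the start.
Apex1, chr14:50924913-50924942, plus strand: gcgctccagaacCACGTGggggcggagccc
Apex1, chr14:50924937-50924966, plus strand: gagccctcgaatCACGTGaccacaccaatc
Apex1, chr14:50924958-50924987, plus strand: acaccaatcgccCACGTGggaacaggcaga
A match describes letters in this window and says nothing of binding in these samples.

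Values are normalized counts, that is, reads per gene that the authors scaled by library and reported as whole numbers. Column totals lay between 19788898 and 21591289. Reads behind them were estimated from the steps between low values as 6680000 to 38800000 in WT, 9230000 to 23600000 in Atm-/- and 6370000 to 24700000 in Rag2c/c p53-/-, so a single read was worth 0.509 to 3.38 normalized counts. The targeted gene Atm was at 1559 to 2274 in WT and 208 to 732 in Atm-/-, but also at 439 to 1315 in Rag2c/c p53-/-. Trp53 was still at 2018 to 5461 in Rag2c/c p53-/- against 4387 to 6341 in WT, and Rag2 was at 260 to 790 there, 46 to 1025 in Atm-/- and 4199 to 5409 in WT. A value summed over a gene does not check a deletion or truncation of part of it. All 6 T cell markers, among them Cd3e and Lck, were detected in every group, and none of the 6 passed the limma test in either lymphoma group against WT, with 0 of 6 at an unadjusted p under 0.05 in Atm-/- and 2 of 6 in Rag2c/c p53-/-. Of 6 double-positive thymocyte markers, 5 fell in Atm-/- and 2, Rag1 and the targeted gene Rag2, in Rag2c/c p53-/-. Their summed level, to which Rag1 gave the most in WT, was 114123 to 172507 in WT, 19789 to 53871 in Atm-/- and 45695 to 74443 in Rag2c/c p53-/-. In such bulk samples fewer cells of a type and less RNA per cell cannot be told apart.

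Myc was high and Mxd1 and Mycn were low in both lymphoma groups. Against WT thymus, limma with Benjamini-Hochberg adjustment over 15872 genes called 3 of the 9 members changed in Atm-/- lymphomas, where 29.5% of all genes tested were called, and the same 3 in Rag2c/c p53-/- lymphomas, where 23.6% were. A call required an adjusted p under 0.05, a log2 difference of 1 or more in size and a group mean of 10 or more. By direction, 12.6% of all genes were called higher and 17.0% lower in Atm-/-, and 9.77% and 13.9% in Rag2c/c p53-/-. Myc was the called member that was higher in each, and Mycn and Mxd1 were the lower ones. Mycn passed the filter on low values only through WT, so its place among the lower ones was not independent of that filter. At an adjusted p under 0.05 alone, 6 of 9 members passed in Atm-/- (44.6% of all genes), 2 higher and 4 lower where 21.0% and 23.6% of all genes were, and 4 of 9 in Rag2c/c p53-/- (37.3% of all genes), 1 higher and 3 lower where 17.5% and 19.7% of all genes were. The libraries of both groups did not overlap for 6 members in Atm-/- (51.3% of all genes) and for 4 in Rag2c/c p53-/- (43.9% of all genes). The called counts are not far from the shares of all genes, and 9 members are too few to read a difference from the other counts. What follows therefore rests on the single genes and not on the count. Both comparisons use the same 3 WT libraries.

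Myc (ENSMUSG00000022346, chr15:61985341-61990374, plus strand, GRCm38), the family member of most dividing tissues, had normalized counts of 2495, 2985 and 2500 in the WT thymuses. Among Atm-/- lymphomas they were 8632, 8817, 6681, 11860 and 5936. Rag2c/c p53-/- lymphomas had 5968, 6272, 7740, 8055 and 6804. Every lymphoma lay above every thymus, and the lowest of them, at 5936, was well above the highest thymus, at 2985. The group means were 2660 ± 281 (SD, n = 3) in WT, 8385 ± 2304 (SD, n = 5) in Atm-/- and 6968 ± 907 (SD, n = 5) in Rag2c/c p53-/-. Myc rose 3.07-fold in Atm-/- (log2 fold change 1.62 ± 0.20 SE, limma adjusted p = 4.9e-05) and 2.61-fold in Rag2c/c p53-/- (1.38 ± 0.20 SE, adjusted p = 0.000233). Per kilobase of exon, Myc ranked above 92.3% of the expressed genes in WT, 98.4% in Atm-/- and 97.9% in Rag2c/c p53-/-. The difference between both lymphoma groups was a log2 of 0.23 (95% confidence interval -0.14 to 0.61, limma adjusted p = 0.43), and their libraries overlapped.

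Mycn (ENSMUSG00000037169, chr12:12936096-12941914, minus strand), the family member known from neural and other embryonic progenitors and from early thymocytes, went the other way. WT thymuses had 93, 68 and 77 normalized counts. Atm-/- lymphomas had 3, 0, 0, 2 and 1, and Rag2c/c p53-/- lymphomas had 35, 0, 2, 1 and 2. Except for Rag2c/c p53-/- replicate 1, at 35, no lymphoma was above 3. Mycn fell in Atm-/- (log2 fold change -5.40 ± 0.93 SE, limma adjusted p = 0.000531) and in Rag2c/c p53-/- (-4.45 ± 0.93 SE, adjusted p = 0.00255), and the log2 values depended on the pseudocount, at -3.78 and -3.22 with 5 in place of 1. Without Rag2c/c p53-/- replicate 1 the latter was -5.27. Zeros stood in Atm-/- replicates 2 and 3 and in Rag2c/c p53-/- replicate 2, where 3 reads would have been worth 6.85, 4.65 and 10.1, and these limits cover counting error only. Mycn passed the filter on low values only through WT, so its presence among the genes tested required it to be high there.

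Mycl (ENSMUSG00000028654, chr4:122995652-123002485, plus strand), the third MYC gene, was low everywhere. Its normalized counts were 46, 23 and 43 in WT, 27, 18, 19, 19 and 9 in Atm-/-, and 15, 14, 23, 54 and 11 in Rag2c/c p53-/-. Groups overlapped in each comparison, and the log2 differences from WT were -0.995 ± 0.53 SE (limma adjusted p = 0.137) and -0.83 ± 0.53 SE (adjusted p = 0.23). Myc made up 95.9% to 97.7% of the summed normalized counts per kilobase of the MYC genes in WT, 99.8% to 99.9% in Atm-/- and 99.4% to 99.9% in Rag2c/c p53-/-.

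**Figure D1:**
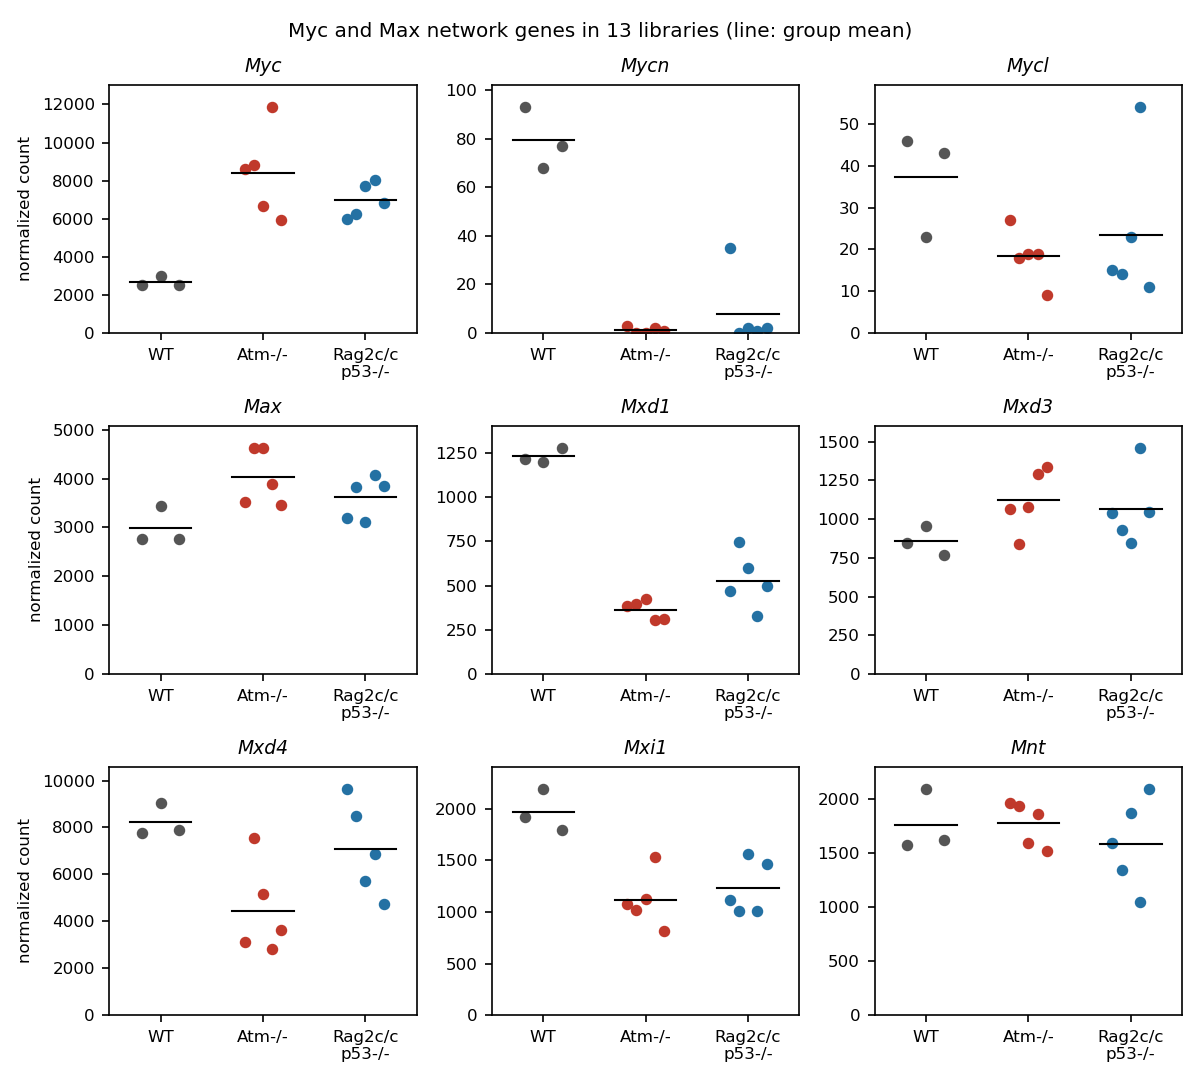
Normalized counts of the 9 network genes (vertical axes, linear and starting at 0) in the 3 WT thymuses, 5 Atm-/- lymphomas and 5 Rag2c/c p53-/- lymphomas, 1 dot per library and a line at each group mean. All lymphomas lie above all thymuses for Myc and below all of them for Mycn, Mxd1 and Mxi1, and Mnt overlaps in all groups.

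Max (ENSMUSG00000059436, chr12:76937269-76962248, minus strand), the shared partner of the other members, differed little. WT thymuses had 2761, 3437 and 2772 normalized counts, Atm-/- lymphomas 3526, 4624, 4623, 3886 and 3461, and Rag2c/c p53-/- lymphomas 3200, 3826, 3118, 4074 and 3848. The lowest Atm-/- lymphoma, at 3461, was just above the highest thymus, at 3437, while Rag2c/c p53-/- lymphomas overlapped with WT. Max rose 1.34-fold in Atm-/- (log2 fold change 0.42 ± 0.15 SE, limma adjusted p = 0.0357), a result that no longer passed without WT replicate 1 (adjusted p = 0.136), WT replicate 3 (0.136) or Atm-/- replicate 2, 3 or 4 (0.0614, 0.0782 and 0.0522). In Rag2c/c p53-/- the log2 difference was 0.27 (95% confidence interval -0.05 to 0.60, adjusted p = 0.173). The ratio of Myc to Max per kilobase was 1.15 to 1.197 in WT, 1.91 to 4.04 in Atm-/- and 2.17 to 3.29 in Rag2c/c p53-/-.

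The antagonists of MYC did not move together. Mxd1 (ENSMUSG00000001156, chr6:86647044-86669159, minus strand), which is known to be induced as cells leave the cycle and differentiate, had 1218, 1199 and 1278 normalized counts in WT. Atm-/- lymphomas had 383, 395, 422, 306 and 310, and Rag2c/c p53-/- lymphomas had 468, 746, 598, 327 and 496. The thymuses lay close together and every lymphoma was lower. Mxd1 fell to 0.293 of the WT level in Atm-/- (log2 fold change -1.77 ± 0.23 SE, limma adjusted p = 7.36e-05) and to 0.413 in Rag2c/c p53-/- (-1.28 ± 0.23 SE, adjusted p = 0.00103). Between the lymphoma groups the log2 difference, Atm-/- minus Rag2c/c p53-/-, was -0.50 (95% confidence interval -0.93 to -0.06, adjusted p = 0.131). With each library left out in turn its limma adjusted p ran from 0.0326, without Rag2c/c p53-/- replicate 4, to 0.249. The ratio of Myc to Mxd1 per kilobase was 5.09 to 6.48 in WT, 41.2 to 101 in Atm-/- and 21.9 to 64.1 in Rag2c/c p53-/-. That this ratio did not overlap between thymuses and lymphomas follows from Myc being higher and Mxd1 lower in every lymphoma.

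Mxi1 (ENSMUSG00000025025, chr19:53310506-53375810, plus strand), a close relative of Mxd1, had 1926, 2193 and 1800 normalized counts in WT, 1074, 1016, 1129, 1529 and 817 in Atm-/-, and 1118, 1006, 1566, 1008 and 1466 in Rag2c/c p53-/-. Again no lymphoma reached the lowest thymus. Mxi1 fell in Atm-/- (log2 fold change -0.85 ± 0.21 SE, limma adjusted p = 0.00517) and in Rag2c/c p53-/- (-0.70 ± 0.21 SE, adjusted p = 0.0182), and the latter did not pass without WT replicate 1 (adjusted p = 0.0569) or WT replicate 2 (0.0789). Mxi1 shares its locus with Gm10197 on the other strand, which had at most 2 normalized counts in any library.

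Mxd4 (ENSMUSG00000037235, chr5:34173887-34187720, minus strand), the most abundant antagonist per kilobase in WT, ranged widely among lymphomas. The normalized counts were 7778, 9034 and 7872 in WT, 3133, 7559, 5152, 2811 and 3618 in Atm-/-, and 9634, 8467, 5698, 6862 and 4733 in Rag2c/c p53-/-. All Atm-/- lymphomas were below WT, replicate 2 only just, whereas Rag2c/c p53-/- replicate 1 was the highest of all libraries. Mxd4 fell to 0.506 of WT in Atm-/- (log2 fold change -0.98 ± 0.30 SE, limma adjusted p = 0.0177), not passing without WT replicate 2 (adjusted p = 0.0647). In Rag2c/c p53-/- the log2 difference was -0.26 (95% confidence interval -0.91 to 0.39, adjusted p = 0.52). The difference between lymphoma groups, Atm-/- minus Rag2c/c p53-/-, was a log2 of -0.72 (95% confidence interval -1.28 to -0.16, adjusted p = 0.0924). With each library left out in turn its limma adjusted p ran from 0.0167, without Atm-/- replicate 2, to 0.205.

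Mxd3 and Mnt showed no change that passed. Mxd3 (ENSMUSG00000021485, chr13:55325168-55329758, minus strand), the family member known from S phase and proliferating progenitors, had 847, 955 and 769 normalized counts in WT, 1064, 836, 1078, 1290 and 1333 in Atm-/-, and 1040, 929, 843, 1458 and 1047 in Rag2c/c p53-/-. Mxd3 overlaps Prelid1 on the other strand, which reached 7764 normalized counts, and whether reads were counted by strand is not given in the sources used here. Mnt (ENSMUSG00000000282, chr11:74830920-74845725, plus strand), the antagonist found in nearly all cells, had 1576, 2092 and 1619 in WT, 1961, 1939, 1591, 1858 and 1522 in Atm-/-, and 1589, 1341, 1866, 1047 and 2089 in Rag2c/c p53-/-. Both genes overlapped between all groups. The log2 differences from WT were 0.37 (95% confidence interval -0.05 to 0.80, limma adjusted p = 0.138) and 0.29 (-0.13 to 0.71, adjusted p = 0.262) for Mxd3 in Atm-/- and Rag2c/c p53-/-. For Mnt they were 0.01 (-0.43 to 0.46, adjusted p = 0.963) and -0.18 (-0.63 to 0.26, adjusted p = 0.515), and the sign of the first changed with the scaling of the libraries.

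**Figure D2:**
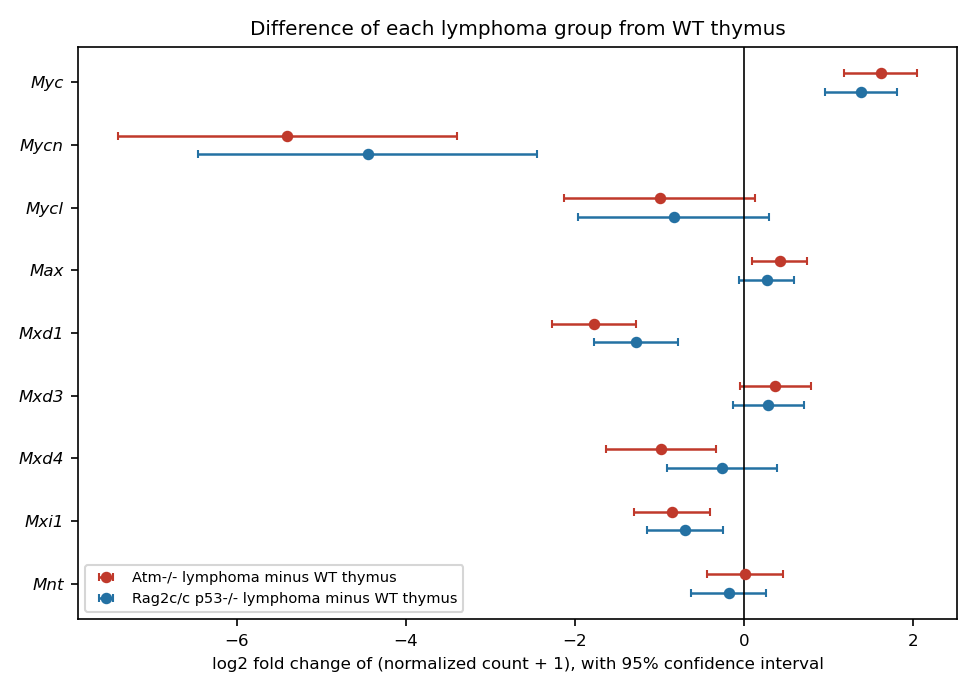
Log2 fold change of each network gene (horizontal axis, log2 of the normalized count + 1, limma) in Atm-/- and Rag2c/c p53-/- lymphomas against WT thymus, with bars for the 95% confidence interval. Myc stands right of 0 in both groups at 1.62 and 1.38, and Mycn, Mxd1 and Mxi1 stand left of 0 in both.

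Directly compared, Atm-/- and Rag2c/c p53-/- lymphomas differed in 0 of 9 members by limma at an adjusted p under 0.05, where 11.6% of all genes passed, 5.13% higher and 6.48% lower in Atm-/-. None was called, where 7.84% of all genes were, 3.51% higher and 4.33% lower. At an unadjusted p under 0.05 there were 2 members, Mxd1 and Mxd4, both lower in Atm-/-, and the two-sided exact permutation test of 5 against 5 libraries gave p = 0.0556 for Mxd1 and p = 0.0635 for Mxd4. All 9 members overlapped between the lymphoma groups, where 8.33% of all genes did not.

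Summed per kilobase of exon, the MYC genes were below their antagonists in thymuses and above them in lymphomas. Myc, Mycn and Mycl together came to 954 to 1125 in WT, 2187 to 4370 in Atm-/- and 2211 to 2978 in Rag2c/c p53-/-. Mxd1, Mxd3, Mxd4, Mxi1 and Mnt came to 2047 to 2411, 1454 to 1868 and 1736 to 2148. The ratio of the first sum to the second was 0.463 to 0.467 in the thymuses, 1.48 to 2.83 in Atm-/- and 1.03 to 1.64 in Rag2c/c p53-/-. On this measure every lymphoma had more Myc family than antagonist signal and every thymus less. Which sum is larger depends on the exon lengths used, which pool all transcripts of a gene (2717 bases for Myc and 8483 for Mxd4). Within the antagonists, Mxd4 gave 44.2% to 45.3% of the sum in WT, 21.5% to 47.7% in Atm-/- and 32.1% to 52.9% in Rag2c/c p53-/-. The part of Mxd1 was 7.03% to 8.83% in WT against 2.80% to 3.73% in Atm-/- and 2.51% to 5.46% in Rag2c/c p53-/-. These sums weigh transcripts, not proteins, and are given as a description.

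**Figure D3:**
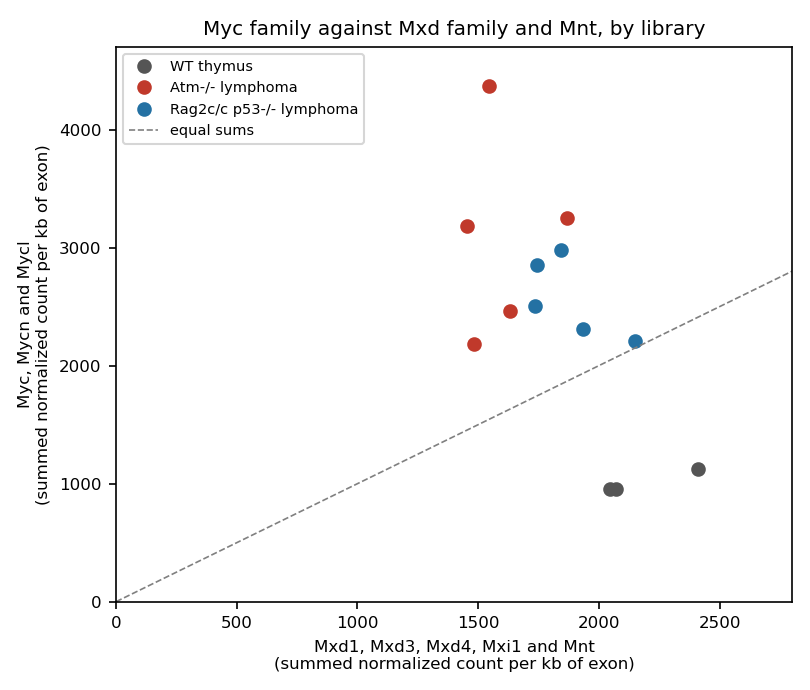
Summed normalized counts per kilobase of exon of Myc, Mycn and Mycl (vertical axis) against those of Mxd1, Mxd3, Mxd4, Mxi1 and Mnt (horizontal axis), 1 dot per library, with a dashed line where both sums are equal. The 3 thymuses lie below the line and the 10 lymphomas above it, Rag2c/c p53-/- replicate 1 closest at a ratio of 1.03.

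Other bHLHZip genes that meet this network were examined through Mlx, Mlxip, Mlxipl and Mga. Of the 4, Mga, a MAX partner of a repressive Polycomb complex, fell in Atm-/- (log2 fold change -1.16 ± 0.32 SE, limma adjusted p = 0.00993) and in Rag2c/c p53-/- (-1.12 ± 0.32 SE, adjusted p = 0.0144), from a mean of 4373 ± 811 (SD, n = 3) to 1968 ± 447 and 2152 ± 887 (SD, n = 5 each). Every lymphoma was below every thymus for Mga. The other 3 passed in neither group, and Mlxipl was under 10 in all WT libraries.

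Among 10 cofactors of MYC, 5 rose and 1 fell in Atm-/-, and 6 rose and 1 fell in Rag2c/c p53-/-. Of all genes tested, 21.0% rose and 23.6% fell in Atm-/- and 17.5% rose and 19.7% fell in Rag2c/c p53-/-, and the same shares hold beside the counts of every other list. Ruvbl2 (log2 fold change 1.09 and 0.95, adjusted p = 0.000685 and 0.00224) and Ruvbl1 (0.81 and 0.86), the paired helicases of the TIP60 complex, and Kat2a (0.99 and 0.86), the GCN5 acetyltransferase, rose most. Bptf, a chromatin remodelling subunit, fell (-0.64 and -0.59). The median log2 fold change of the 10 was 0.33 in Atm-/- and 0.52 in Rag2c/c p53-/-, against -0.02 over all genes tested in either comparison. Zbtb17, the MIZ1 protein through which MYC represses, was the 1 gene of the list that differed between lymphoma groups, at -0.49 in Atm-/- minus Rag2c/c p53-/- (limma adjusted p = 0.00972).

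Of 7 corepressors used by MXD proteins, 0 passed in Atm-/- by limma, also 0 at an unadjusted p under 0.05, and 3 rose in Rag2c/c p53-/-. Of all genes tested, 44.6% passed in Atm-/- and 17.5% rose in Rag2c/c p53-/-. Those 3 were Hdac1, a histone deacetylase (log2 fold change 0.90, adjusted p = 0.00158), and the SIN3 complex subunits Sap30 (0.83, adjusted p = 0.0195) and Sap18 (0.83, adjusted p = 0.0303). Hdac1 was also lower in Atm-/- than in Rag2c/c p53-/- (-0.68, limma adjusted p = 0.0114). The libraries did not overlap, but the highest Atm-/- lymphoma, at 7913, was just below the lowest Rag2c/c p53-/- lymphoma, at 7926.

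Of 12 genes that act on the stability of the MYC protein, 3 rose and 4 fell in Atm-/-, where 21.0% and 23.6% of all genes did. In Rag2c/c p53-/- 3 rose and 3 fell, where 17.5% and 19.7% of all genes did. These counts are near those shares, and the list had a median near that of all genes, at -0.01 and -0.02. Skp2, a ubiquitin ligase subunit (log2 fold change 1.22 and 1.096), Aurka, a mitotic kinase (1.13 and 1.25), and Plk1 (0.98 and 0.94) rose in both groups. Fbxw7, the ligase subunit that marks MYC and NOTCH1 for degradation, fell in both, at -0.78 (limma adjusted p = 0.00662) in Atm-/- and -0.73 (adjusted p = 0.0113) in Rag2c/c p53-/-. Pim1, a kinase that phosphorylates MYC, also fell in both (-0.88 and -1.05), and Btrc fell in Atm-/- (-0.90, limma adjusted p = 0.000323).

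Of 9 genes upstream of Myc, E2f1 rose in both groups (log2 fold change 1.03 and 1.002, limma adjusted p = 0.000267 and 0.000449), and Rbpj, the DNA-binding partner of NOTCH, fell in Rag2c/c p53-/- (-0.87, adjusted p = 0.0339). Notch1 is named after its values were seen, because it varied so widely. WT thymuses had 9029, 10454 and 10854 normalized counts of Notch1, Atm-/- lymphomas 45260, 62925, 5365, 28906 and 5481, and Rag2c/c p53-/- lymphomas 11569, 11902, 26815, 16700 and 15039. Every Rag2c/c p53-/- lymphoma was above WT, and Atm-/- lymphomas lay on both sides of it. Notch1 did not pass in either comparison (0.91 ± 0.71 SE, limma adjusted p = 0.307, and 0.63 ± 0.71 SE, adjusted p = 0.505). In Atm-/- the libraries with the lowest Notch1, replicates 3 and 5, also had the lowest Myc, at 6681 and 5936, and this relation was not tested.

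Known targets that MYC activates were higher in lymphomas. All lists used here were chosen with earlier results of these data known, so their counts are not an independent test. Of 22 genes of the nucleolus and ribosome biogenesis, 21 rose in Atm-/- and 21 in Rag2c/c p53-/-, where 21.0% and 17.5% of all genes tested rose, and their median log2 fold change was 1.05 and 0.92 against -0.02 over all genes in each. Bop1, a factor of large ribosomal subunit assembly, had normalized counts of 2091 to 2174 in WT, 5175 to 6643 in Atm-/- and 4442 to 6511 in Rag2c/c p53-/-, and rose most in both (1.51 ± 0.15 SE, limma adjusted p = 8.86e-06, and 1.42 ± 0.15 SE, adjusted p = 2.64e-05). Gnl3, the nucleostemin GTPase, rose by 1.44 and 1.17, Fbl, the methyltransferase fibrillarin, by 1.33 in Atm-/-, and Noc4l by 1.17 in Rag2c/c p53-/-. The 1 gene that passed in neither group was Utp20, at 0.44 (adjusted p = 0.14) and 0.10 (adjusted p = 0.761). Between lymphoma groups 0 of the 22 passed by limma, with 2 at an unadjusted p under 0.05.

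Targets in growth and metabolism were less uniform. In Atm-/- 19 of 24 rose and 1 fell, in Rag2c/c p53-/- 17 rose and 1 fell, and the median log2 fold change was 0.97 and 0.95. Srm, spermidine synthase, rose in both (1.67 and 1.80), as did the serine hydroxymethyltransferases Shmt2 (1.89 and 1.51) and Shmt1 (1.42 and 1.53). Apex1, whose E-boxes are printed above, had 1134 to 1271 normalized counts in WT, 4305 to 11326 in Atm-/- and 1606 to 4513 in Rag2c/c p53-/-. It rose by 2.59 ± 0.34 SE (limma adjusted p = 8.22e-05) and 1.18 ± 0.34 SE (adjusted p = 0.0164), and the difference of 1.41 between lymphoma groups passed as well (adjusted p = 0.00838). Whether MYC or the place of Apex1 on chromosome 14 had a part in these levels was not tested. Ccnd2, cyclin D2, was the gene that fell, from 5717 to 6642 in WT to 109 to 1878 in Atm-/- and 53 to 274 in Rag2c/c p53-/- (-3.14 and -5.56, limma adjusted p = 0.00432 and 0.000144). An E-box stood in the promoter of 5 of the 17 nucleolar and 8 of the 22 growth genes with an entry. The share was 8.09% of all genes with an entry, which include genes not tested here. In other lists it stood in 2 of 10 MYC cofactors, 2 of 10 stability genes, 2 of 4 Mlx and Mga genes and 1 of 8 upstream genes. It stood in 0 of 6 corepressors and 0 of 5 repressed targets.

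Of 6 targets that MYC represses, the cell cycle inhibitor Cdkn1b, p27, fell in Atm-/- (log2 fold change -1.88, limma adjusted p = 4.45e-05) and in Rag2c/c p53-/- (-1.36, adjusted p = 0.000632). Gadd45a, a stress gene, fell in Atm-/- (-1.20, adjusted p = 0.00415). Cdkn1a, p21, went up instead, from 136 to 208 normalized counts in WT to 329 to 1320 in Atm-/- and 453 to 1015 in Rag2c/c p53-/- (2.18 and 2.03, adjusted p = 0.000685 and 0.00148). Cdkn2b, p15, rose in Rag2c/c p53-/- (2.64, adjusted p = 0.00158) and was lower in Atm-/- than there (-2.02, adjusted p = 0.0106).

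**Figure D4:**
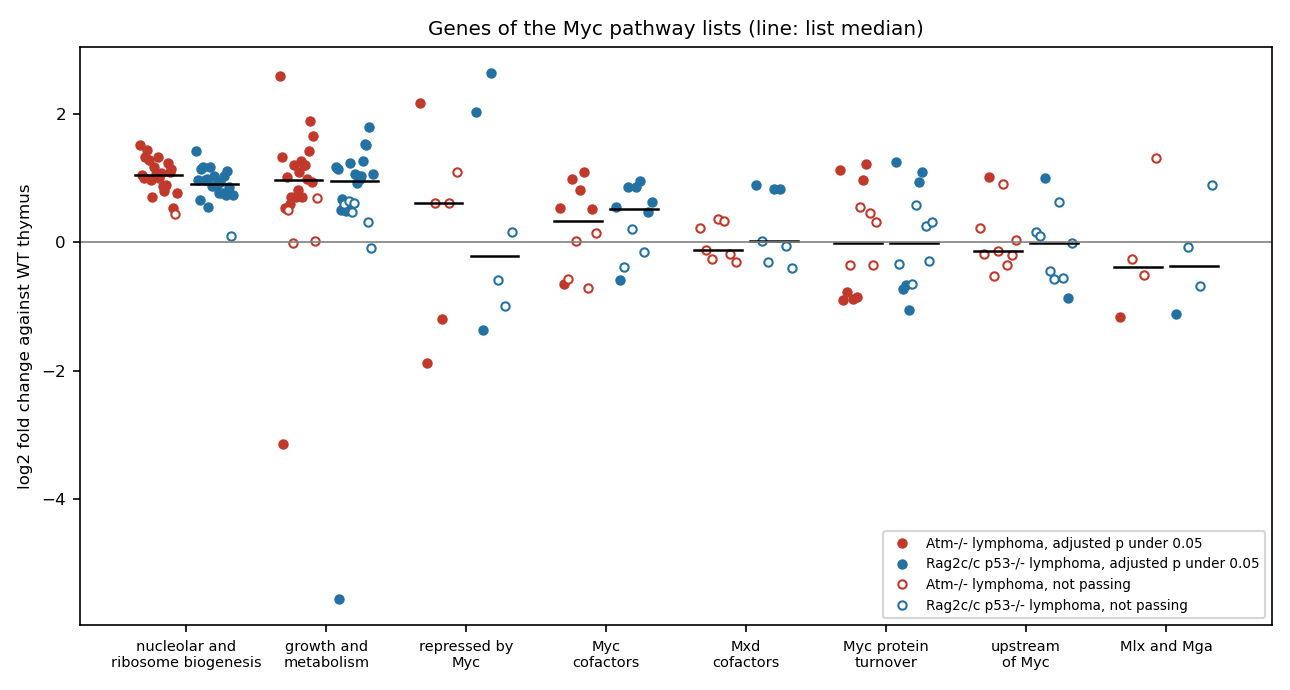
Log2 fold change against WT thymus (vertical axis) of each gene in 8 lists around MYC, for Atm-/- and Rag2c/c p53-/- lymphomas, with filled dots at a limma adjusted p under 0.05, open dots otherwise and a line at the list median. The medians of the nucleolar list (1.05 and 0.92) and the growth list (0.97 and 0.95) stand highest in both groups.

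Across the 10 lymphomas the level of Myc showed no relation that passed with that of its targets. The mean log2 level of the nucleolar list was 11.02 to 11.06 in WT, 12.01 to 12.15 in Atm-/- and 11.55 to 12.14 in Rag2c/c p53-/-. Its correlation with Myc over 10 lymphomas was r = 0.32 (permutation p = 0.342, rho = 0.079, permutation p = 0.838), and with the growth list r = 0.25 (permutation p = 0.482, rho = 0.15, permutation p = 0.682). Mxd1 gave r = -0.17 and -0.16 (permutation p = 0.644 and 0.669). Adjusted over the 4 relations, each Pearson p was 0.669 and each Spearman p 0.839. Without the 2 lymphomas farthest from the median, r for Myc was 0.28 and 0.42, and as deviations from the group means it was 0.20 and 0.06.

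Signs of other cells moved with the groups too. Of 6 markers of dividing cells, 4 rose in Atm-/- and 2 in Rag2c/c p53-/-, with summed levels of 34401 to 39788 in WT, 28849 to 62287 in Atm-/- and 33348 to 49498 in Rag2c/c p53-/-, while Mki67 itself passed in neither (log2 0.02 and -0.15). Of 6 fibroblast and endothelial markers, 4 rose in Atm-/-. In Rag2c/c p53-/- the 3 collagen genes Col1a1, Col1a2 and Col3a1 rose, and Cdh5 fell, with all its values there under 10. Col1a2 was at 23 to 37 in WT, 2099 to 6874 in Atm-/- and 243 to 517 in Rag2c/c p53-/-. The list summed to 3709 to 3846 in WT, mostly Pecam1, to 7802 to 20727 in Atm-/- and to 2944 to 6512 in Rag2c/c p53-/-. Myeloid markers summed to 3359 to 3709, 6330 to 10806 and 3688 to 7684, and 4 of 6 rose in Atm-/- and 2 of 6 in Rag2c/c p53-/-. B cell markers fell for 4 and 5 of 6, and thymic epithelial markers for 4 of 6 in each group, with Foxn1 and Psmb11 all under 10 in lymphomas. Of 5 erythroid markers tested, 2 rose in each group. The part of these cells in the values of the network genes was not tested.

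Around Myc, the neighbouring Pvt1 moved in the same direction. Pvt1, a long noncoding RNA gene whose start lies 52.6 kb downstream, had 59, 49 and 53 normalized counts in WT, 459, 393, 248, 389 and 291 in Atm-/-, and 70, 152, 141, 112 and 158 in Rag2c/c p53-/-. Every lymphoma was above WT. Pvt1 rose in Atm-/- (log2 fold change 2.68 ± 0.31 SE, limma adjusted p = 3.38e-05) and in Rag2c/c p53-/- (1.17 ± 0.31 SE, adjusted p = 0.0104). It also differed between lymphoma groups, by 1.51 ± 0.27 SE (adjusted p = 0.00326), with no overlap, unlike Myc. On the upstream side 9930014A18Rik rose in Atm-/- (3.13 ± 0.80 SE, adjusted p = 0.00656), at 142 to 830 against 19 to 61, and lies within the span of Fam84b, which did not pass (2.04 ± 0.89 SE, adjusted p = 0.0773). Fam49b rose slightly in Atm-/- (0.42, adjusted p = 0.0447), and Trib1 and Asap1 passed in neither group.

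Genes of chromosome 15, where Myc lies, were higher as a whole in lymphomas. Over 583 tested genes of this chromosome the median log2 difference from the WT mean, less that of all genes, was 0.14 to 0.58 in Atm-/-, 0.29 to 0.61 in Rag2c/c p53-/- and -0.02 to 0.01 in WT. The group medians, 0.48 and 0.46, were the highest of 20 chromosomes, the other 19 lying between -0.31 and 0.12 in Atm-/- and between -0.37 and 0.39 in Rag2c/c p53-/-. Myc itself differed from the WT mean by 1.16 to 2.16 in Atm-/- and by 1.17 to 1.603 in Rag2c/c p53-/-, more than the chromosome median in each of the 10 lymphomas. Myc was already known to be higher in every lymphoma, so setting it beside a median does not separate it from its chromosome. The part of chromosome 15 as a whole in the level of Myc was not tested.

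**Figure D5:**
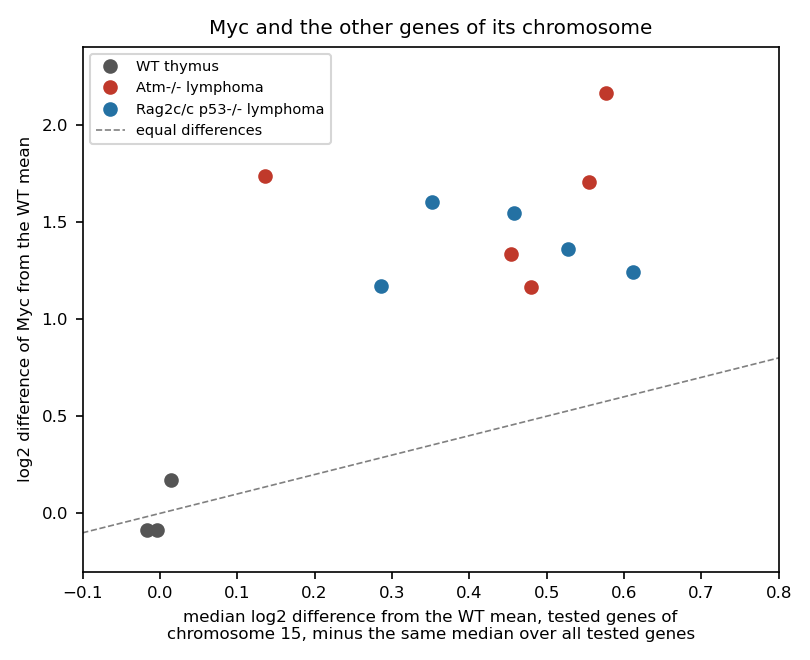
Log2 difference of Myc from the WT mean (vertical axis) against the median log2 difference of 583 tested genes of chromosome 15, less that of all tested genes (horizontal axis), 1 dot per library, with a dashed line of equal differences. All 10 lymphomas lie above the line, with chromosome 15 at 0.14 to 0.61 and Myc at 1.16 to 2.16.

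Around Mycn, Fam49a, which lies 674 kb away, fell in Atm-/- (log2 fold change -2.73 ± 0.47 SE, limma adjusted p = 0.000535) and in Rag2c/c p53-/- (-2.04 ± 0.47 SE, adjusted p = 0.00477). On the other side Ddx1, an RNA helicase gene 283 kb away, rose in both (0.71 and 0.72, adjusted p = 0.0101 and 0.0109). Fam49a and Ddx1 moved in opposite directions on either side of Mycn, which was near 0 in all lymphomas except Rag2c/c p53-/- replicate 1. A change of the region as a whole was not tested. Gm4294, Rpl36-ps3, Nbas and Trib2 passed in neither group.

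The genes most like each member were picked from the 15872 genes tested by the correlation of log2 levels over the 13 libraries. These libraries share the difference between thymus and lymphoma, so values within the 10 lymphomas as deviations from group means are given beside them. The same lymphomas had a part in the choice of genes, so the values within them are not an independent check. Fkbp5, an FK506-binding cochaperone gene, was most like Myc (r = 0.98, and 0.95 within lymphomas), followed by Pabpc4 (0.97 and 0.75) and Ctse, cathepsin E (0.96 and 0.94). Fkbp5 had 15665, 15220, 12491, 17198 and 11121 normalized counts in Atm-/- and 10800, 10845, 13125, 14935 and 12068 in Rag2c/c p53-/-, and was highest in Atm-/- replicate 4, as Myc was. For Mxd4 it was Btg2, an antiproliferative gene (0.96 and 0.98), then Nprl2 (0.95 and 0.93) and Npepps (0.95 and 0.91). For Mxi1 the list was Ddb2, a DNA damage recognition gene (0.94 and 0.88), Fam120c (0.93 and 0.87) and Rag1 (0.93 and 0.88), a marker of double-positive thymocytes. Mxd1 was most like L1cam (0.96 and 0.72) and Vipr1 (0.96 and 0.76). Klrc2 also had 0.96 over 13 libraries, but it passed the filter on low values only through WT, and its 0 to 3 normalized counts in lymphomas are too few for a value within them.

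Closest to Max were Eif4e2 (r = 0.94 over 13 libraries and 0.93 within lymphomas), Mrpl40 (0.93 and 0.89) and Mrpl32 (0.93 and 0.91). Among the genes most like Mycn were Edc3 (0.97 and 0.92) and Gm8818 (0.97 and 0.92, at 0 to 4 normalized counts in all lymphomas but Rag2c/c p53-/- replicate 1), values that rest on the thymuses and on Rag2c/c p53-/- replicate 1. Mxd3 was nearest to Ssr1 (0.92 and 0.91), Arhgap10 (0.91 and 0.88) and Anapc5 (0.89 and 0.88), and Mnt to Arid3a (0.88 and 0.91), Tnfrsf23 (0.87 and 0.87, at 3 to 23 normalized counts in all libraries) and Endov (0.79 and 0.87). Among the members themselves, every pair was correlated within lymphomas as deviations from group means, and the pairs with the largest values are given. Mxd1 and Mxd3 ran against each other (r = -0.82, n = 10), as did Mycn and Max (-0.64) and Mxd3 and Mnt (-0.61). Mycn was low in all lymphomas but Rag2c/c p53-/- replicate 1. Mxi1 ran with Mnt (0.68) and with Myc (0.63). Myc and Max were hardly related (0.11). The pairs were picked by size from many and were not tested. These correlations are descriptions from 10 libraries.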

How the data were processed

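RNA sequencing of 13 libraries was analysed, from 5 Atm-/- lymphomas, 5 Rag2c/c p53-/- lymphomas and 3 WT thymuses. The submitters' processing notes name STAR 2.4.0g1, Picard, DESeq2 1.6.3 and GRCm38. The study's methods, written for the WT thymuses and other lymphomas, add Ensembl annotation, removal of duplicates, uniquely mapped reads and counting with HTSeq-count, and these are taken to hold here. The deposited values are scores, namely normalized counts, scaled per library with DESeq2 by the authors and then rounded, and count tests were therefore left out. For each of the 43629 genes, the group means deposited by the authors lay within 1 normalized count of the library means. The deposited fold changes (ratio), their log2 values and the p-values and adjusted p-values of the authors, hold their comparisons of each lymphoma group with WT and were not used.

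The 13 libraries in 3 groups were fitted together with limma 3.58.1 (R 4.3.3, trend and robust moderation) on log2(value + 1), and the script was tested on simulated data. Genes needed a value of 10 or more in 3 or more libraries, which 15872 had. All 9 members passed this filter. Adjusted p-values are Benjamini-Hochberg values over all genes tested. Named beside the members are, for each list, up to 3 passing genes with the highest and lowest log2 fold change, the 3 genes most correlated with each member, the 3 tested neighbours on each side of Myc and Mycn, Atm, Rag2 and Trp53. Levels per kilobase used GENCODE vM21 exon lengths. Reads per library were estimated from steps between low values, and low genes in libraries with few reads are the least precise. Alternatives covered scaling, filters, pseudocounts, moderation, the groups fitted, each library left out, exact permutation tests and, chosen after seeing the data, leaving out the shallowest library of each group. The members and lists were chosen with earlier results of these data known. Some genes that this rule names are not reported here.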

Additional observations from a re-analysis of the deposited data

Results flagged for a closer look

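In 2 of 18 sets of 5 lymphomas, 1 library stood farther from the rest than Dixon's 95% critical value of 0.71 allows, and chance flags about 1 in 20 such sets. Mycn was at 35 normalized counts in Rag2c/c p53-/- replicate 1, where the next lymphoma of the group was at 2 (gap over range 0.943). Mycl was at 54 in Rag2c/c p53-/- replicate 4, where the next was at 23 (gap over range 0.721). The WT ranges were 68 to 93 for Mycn and 23 to 46 for Mycl.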

How the results depend on the processing

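With an adjusted p under 0.05 as the sole threshold, the counts became 6 members in Atm-/- against WT (from 3), 7078 and 5916 genes in Atm-/- and Rag2c/c p53-/- (from 4687 and 3750), and 59, 61 and 7 genes of the pathway lists in Atm-/-, Rag2c/c p53-/- and between lymphomas (from 33, 27 and 3). The correlation of Mxd1 with L1cam fell to 0.72 within lymphomas. Leaving out each library gave 3 to 4 called members in Atm-/-, 3 in Rag2c/c p53-/- and 0 between lymphomas, 3401 to 4902, 2505 to 3956 and 934 to 1315 called genes, and 29 to 38, 19 to 33 and 2 to 3 called list genes. Mnt in Atm-/- against WT, near 0, reversed to -0.000672 with recomputed size factors and ranged from -0.061 to 0.14 with libraries left out (-0.061 and -0.041 without WT replicates 1 and 3, -0.02, -0.02 and -0.0047 without Atm-/- replicates 1, 2 and 4), and Mycl between lymphomas from -0.36 to 0.19, reversing without Atm-/- replicate 5 (0.05) or Rag2c/c p53-/- replicate 4 (0.19). Max in Atm-/- no longer passed without a filter on low values (adjusted p = 0.058) or without trend and robust moderation (0.0578). Without the shallowest library of each group, Mxi1 in Rag2c/c p53-/- did not pass (0.111) and Mxd4 between lymphomas passed (0.0431). Mycl in Atm-/- had an exact permutation p = 0.0357, and the smallest value that this test can give with 5 against 3 libraries is 0.0179. The permutation p-values were not adjusted. The causes were not tested. The called changes of Myc, Mycn and Mxd1 against WT kept their direction and their side of the threshold in every setting run. For Mycn, which passed the main filter on low values only through WT, a lower level in lymphomas was not independent of that filter. No paired analysis was possible because tumour numbers and thymus numbers do not pair the groups.

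Values under about 10 rest on few reads in the shallowest libraries, so the levels of Mycn in lymphomas and of Mycl are limited by depth. The 3 WT libraries serve both comparisons, and strain and series differ between them and the lymphomas.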

Other observations

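The overall mean that the authors deposited for each gene is not the mean of these 13 libraries. It came within 1 of that mean for 432 of 14744 genes with a mean of at least 10. For Mycn the authors' overall mean is 89.7 and the mean of the 13 libraries is 21.8, above which only the WT thymuses and Rag2c/c p53-/- replicate 1 lay. For Myc these values are 6470 and 6519, and for Mxd1 510 and 627. The libraries behind the overall mean were not analysed here.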
